A study of Homo sapiens with 2 samples.

Results

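ECH1, ACTN4, EIF3K, HNRNPL, SIRT2, NFKBIB and SARS2 lie close together in 19q13.2, and ABR, YWHAE and PRPF8 lie in 17p13.3. These 10 genes, of 54261 listed in the count table, were examined in RNA-seq of RKO cells, a human colon cancer line, after SRSF2 knockdown. They were chosen by name, with no threshold, from their read counts in these same libraries. Their levels and ratios are therefore descriptions, given without a test. The sequence copies of each gene in the reference genome are a measure that uses no read count, and neighbouring genes and the other genes of each family are set beside the members.

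RKO cells in 1 group were transfected with siNC, a control siRNA with no intended target (si-NC), and in the other with siSRSF2 (si-SRSF2). SRSF2 is a serine- and arginine-rich splicing factor. Both groups are the same line, not edited, and each is 1 library, so there is no replicate check of any difference, and intervals cover counting error only. The libraries held 19931360 (si-NC) and 14512802 (si-SRSF2) counts assigned to genes, called reads here, so that 1 read was worth 0.0502 and 0.0689 CPM (counts scaled to the same library size), and a count of 0 allows a level of up to 3 reads, 0.151 and 0.207 CPM. SRSF2 itself had 1964 reads in the control library and 713 after knockdown (98.5 and 49.1 CPM), so that 49.9% of its control level was left. In bulk RNA, fewer cells that express a gene and less RNA per cell cannot be told apart.

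Each human chromosome has 1 main sequence in the reference genome. For regions where people differ, the assembly also carries alternate scaffolds, which repeat the region in a second version. A processed pseudogene is a copy of the mature mRNA of a parent gene, set back into the genome. A read can fit parent and pseudogene alike only where their bases are the same. A read from a gene that stands in both versions of a region also fits several places. HTSeq, the counting program named by the study, by default leaves such reads uncounted; its setting here, and whether the index held alternate scaffolds, are not given in the sources used here. By default it also leaves out reads that overlap more than one annotated gene. From a count table, little RNA and few uniquely placed reads cannot be told apart.

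ECH1, a peroxisomal and mitochondrial dienoyl-CoA isomerase that helps to break down unsaturated fatty acids, had 582 reads in si-NC and 11 in si-SRSF2. These counts are 29.2 CPM (95% Clopper-Pearson interval 26.9 to 31.7) and 0.758 CPM (0.378 to 1.36). The log2 ratio (si-SRSF2 over si-NC), with 0.5 added to each CPM, was -4.56, and without that addition -5.27, with a counting interval of -6.28 to -4.42. The counting intervals given for other genes are likewise for the ratio without the addition. ECH1 kept 2.60% of its control level and had the lowest ratio of the 12620 genes that averaged at least 1 CPM over both libraries, called tested genes below. TRO, which had 175 reads in si-NC and 0 in si-SRSF2, stood next to it, and its place under ECH1 or above it depends on the 0.5 added. Among protein-coding genes, its reads per kilobase of transcript stood at percentile 84.5 in si-NC and 45.0 in si-SRSF2. The gene lies at chr19:38815422-38831841 on the minus strand (GRCh38), and its transcript has 1200 bases.

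ACTN4 encodes alpha-actinin-4, which cross-links actin filaments. It had 192 reads in the control and 43 after knockdown (9.63 and 2.96 CPM), a log2 ratio of -1.55 (counting interval -2.21 to -1.22), with 30.8% of the control level left. The gene lies at chr19:38647649-38731589, plus strand. Its ratio was the third lowest of the 10492 genes that averaged at least 5 CPM, where ECH1 held the lowest place. Per kilobase, ACTN4 stood at percentile 49.5 in si-NC and 44.7 in si-SRSF2, below ECH1 in si-NC and close to it in si-SRSF2.

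HNRNPL, an RNA-binding protein that regulates splicing, lies 4.5 kb from ECH1 on the same strand (chr19:38836370-38852347) and did not share its ratio. It had 477 reads in si-NC, or 23.9 CPM, and 406 in si-SRSF2, or 27.97 CPM. Its log2 ratio was 0.22 (counting interval 0.03 to 0.42), the opposite direction to ECH1. A readthrough gene, ENSG00000268083, overlaps ECH1 by 14371 bp and HNRNPL by 3809 bp on the same strand, and no row of the table carries that identifier. Its part in the counts of ECH1 and HNRNPL was not tested.

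The other 4 genes of 19q13.2 had at most 12 reads in either library, and their means were under 1 CPM. EIF3K, a subunit of the translation initiation factor eIF3 (chr19:38619082-38636955, plus strand), had 12 reads in si-NC and 8 in si-SRSF2. SIRT2, a deacetylase that needs NAD (chr19:38878555-38899862, minus strand), had 7 and 12 reads. These 2 genes had log2 ratios of -0.07 and 0.64, and both counting intervals included 0 (-1.62 to 1.28 for EIF3K and -0.23 to 2.82 for SIRT2).

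NFKBIB, an inhibitor that holds NF-kB in the cytoplasm, overlaps SIRT2 by 163 bp on the opposite strand (chr19:38899700-38908893). It had 6 reads in si-NC and 4 in si-SRSF2. SARS2, the mitochondrial seryl-tRNA synthetase (chr19:38915266-38930763, minus strand), had 9 and 3 reads, a ratio without the addition of -1.13 on the log2 scale with a counting interval of -3.65 to 0.88. The interval for NFKBIB was -2.40 to 1.95, so that all 4 intervals included 0. At this depth the counts give no direction for any of the 4 genes. The readthrough gene ENSG00000269547, which has no row of that name in the table, covers 15360 bp of SARS2 on its strand.

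The 3 genes of 17p13.3 did not move in 1 direction. ABR, a GTPase-activating protein that switches off Rac (chr17:1003519-1229738, minus strand), had 185 reads in si-NC, or 9.28 CPM, and 53 in si-SRSF2, or 3.65 CPM. Its log2 ratio was -1.24 (counting interval -1.81 to -0.90). YWHAE, the 14-3-3 epsilon protein, which binds phosphorylated partners (chr17:1344275-1400222, minus strand), had 248 reads in si-NC and 494 in si-SRSF2.

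In CPM, YWHAE stood at 12.4 and 34.04, a log2 ratio of 1.42 (1.23 to 1.68), the sixth highest of those 10492 genes. PRPF8, at the 27th highest place, is the large core protein of the U5 snRNP in the spliceosome (chr17:1650629-1684867, minus strand). It had 153 and 230 reads, or 7.68 and 15.8 CPM. Its log2 ratio of 0.999 (0.74 to 1.35) stood just under 2-fold. YWHAE and PRPF8 were thus higher in si-SRSF2 and ABR was lower, although ABR lies 115 kb from YWHAE on the same strand.

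**Figure D1:**
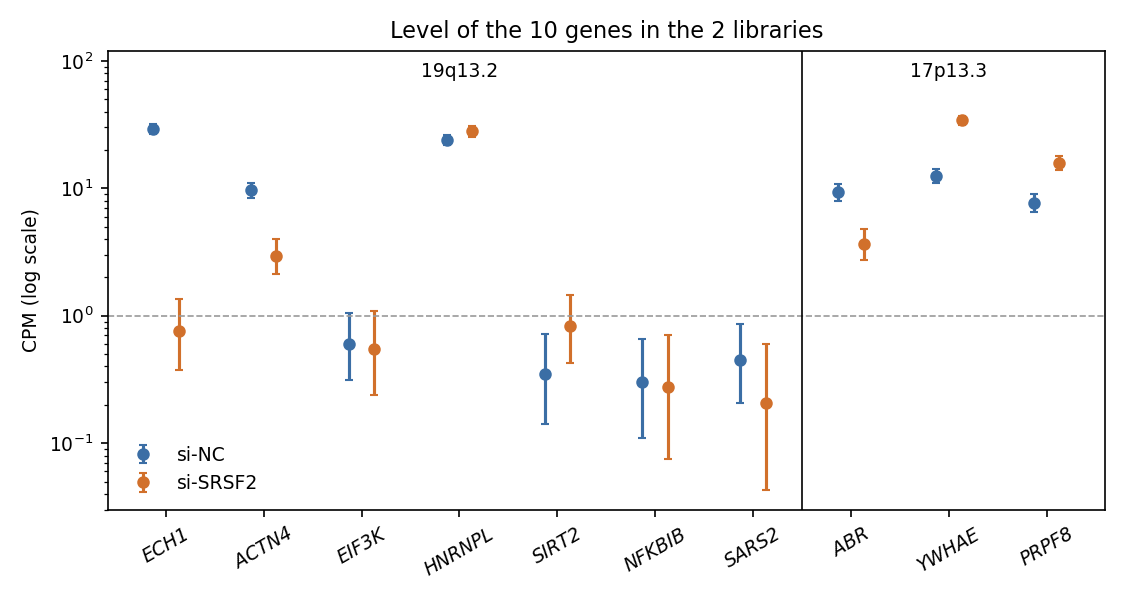
Level of each of the 10 genes in si-NC and si-SRSF2 (CPM, log axis), with points for the libraries and bars for 95% Clopper-Pearson intervals, which cover counting error only. ECH1 shows the widest gap, from 29.2 to 0.758 CPM, whereas EIF3K, SIRT2, NFKBIB and SARS2 lie under 1 CPM in both libraries.

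Of the 10 genes, 6 averaged at least 1 CPM. ECH1, ACTN4 and ABR were at least 2-fold lower, beside 0.499% of all genes tested (63 of 12620), and YWHAE was at least 2-fold higher, beside 0.848% (107 of 12620). In either direction 1.35% of all genes tested passed 2-fold. With a pseudocount of 2 CPM the ratio of ABR was -0.997, just short of 2-fold. With a pseudocount of 0.1 CPM the ratio of PRPF8 was 1.04, just past 2-fold. Since the genes were chosen on this comparison, nothing is read from these counts. The median log2 ratio of all genes tested was -0.02.

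ACTN4 and AMMECR1 (418 and 101 reads, -1.53) were among the 3 genes whose log2 ratio was nearest to that of ECH1, of 10491 compared, all averaging at least 5 CPM. They differed from ECH1 by 3.01 and 3.04 on the log2 scale. TRO, at a mean of 4.39 CPM, was below that limit. The ratio of ACTN4 was closest to those of AMMECR1, RPL9P8 (217 and 51 reads, -1.50) and SPRYD4 (371 and 107 reads, -1.28). With 1 library per group, likeness here means only 1 similar ratio.

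**Figure D2:**
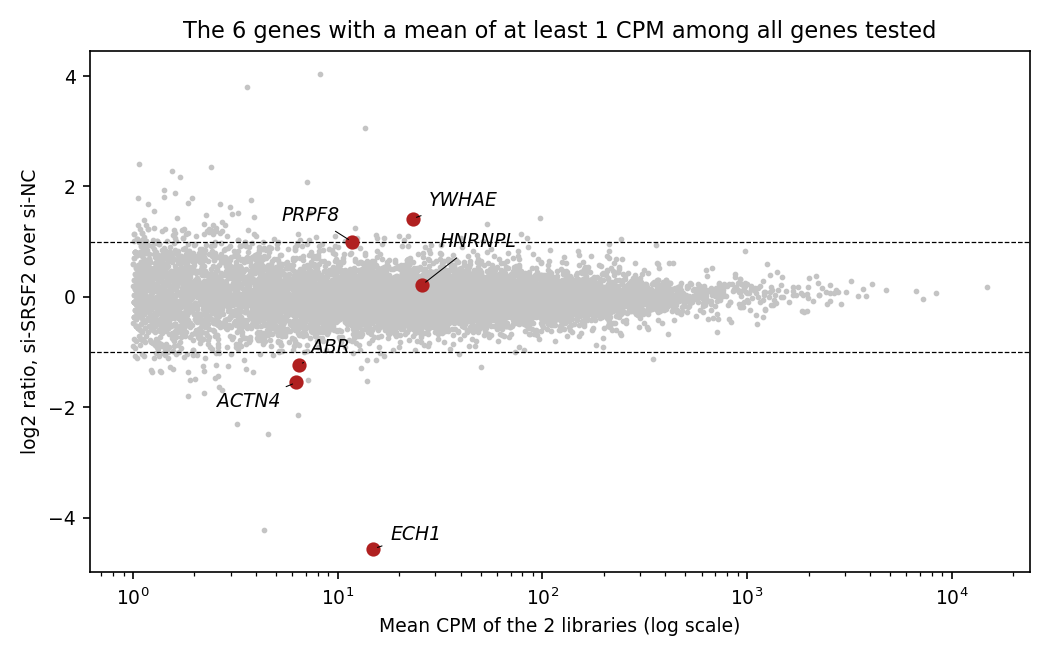
Log2 ratio (si-SRSF2 over si-NC, 0.5 CPM added to each) against mean level (CPM, log axis) for all genes tested, with the members that averaged at least 1 CPM named. ECH1 lies lowest at -4.56, with TRO as the grey point next to it, ACTN4 and ABR at -1.55 and -1.24, and YWHAE and PRPF8 on the other side at 1.42 and 0.999.

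Beside ECH1 and ACTN4, the protein-coding genes from 500 kb before EIF3K to 500 kb after SARS2 were read in the same way (chr19:38119082-39430763). Of the 39 neighbours in the table, 16 averaged at least 1 CPM, and 0 of these were 2-fold higher or lower, where 1.35% of all genes tested were. Their median log2 ratio was 0.15. With 16 genes, a count of 0 is near that share. All 16 lie outside the stretch from EIF3K to SARS2.

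Within that stretch the neighbours were low in both libraries. All 6 neighbours that lie between EIF3K and SARS2 were under 1 CPM, with CAPN12 (a calpain protease) at 2 and 8 reads, and LGALS7, LGALS7B and LGALS4 (galectins), RINL and CCER2 at 0 in both libraries. In the whole window 23 of 39 neighbours (59.0%) were under 1 CPM, compared with 43.0% of all protein-coding genes in the table. Outside EIF3K and SARS2 the count was 17 of 33.

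The genes that directly flank the stretch were low too. MRPS12, a mitochondrial ribosomal protein 181 bp from SARS2, had 4 reads in the control and 1 after knockdown, and MAP4K1, a kinase of blood cells next to EIF3K, had 0 in both. FBXO17 (0 in both) and the muscle calcium channel gene RYR1 (4 and 3) complete the 10 low neighbours nearest to a member. Farther out, PSMD8, a proteasome subunit, had 3143 and 2611 reads, and PAK4, a kinase downstream of Cdc42, had 948 and 874, with log2 ratios of 0.19 and 0.34.

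**Figure D3:**
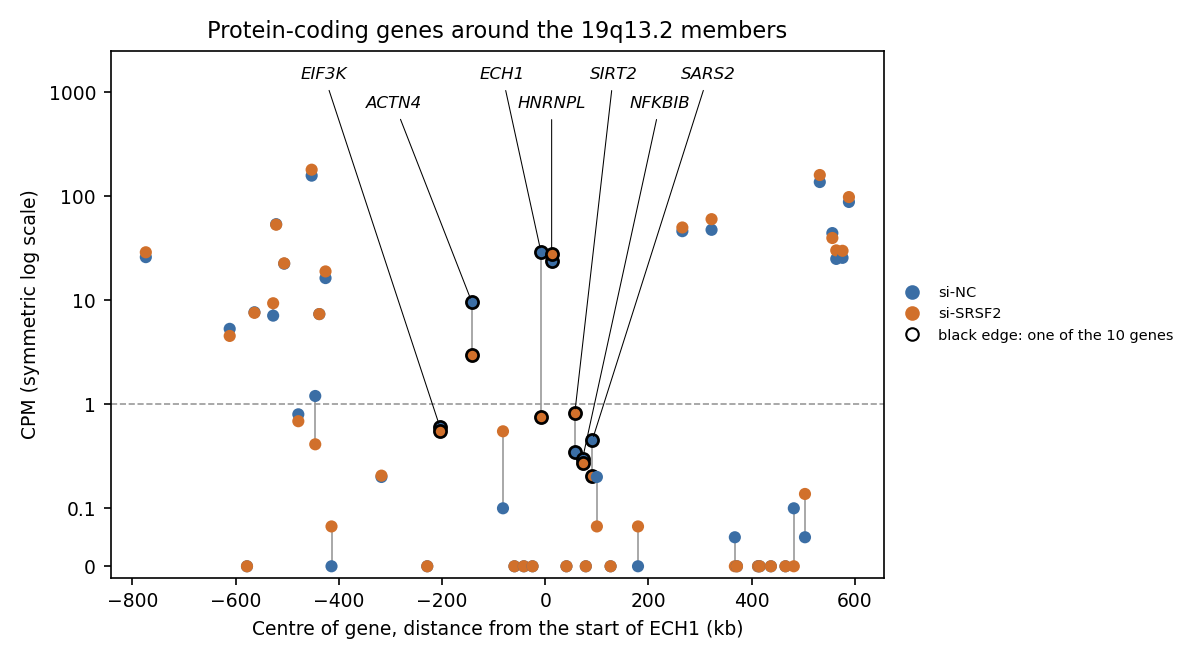
Level (CPM, symmetric log axis that includes 0) of protein-coding genes in si-NC (blue) and si-SRSF2 (orange) along 19q13.2, by distance in kb of each gene's centre from the start of ECH1, with black edges for the 7 members and a dashed line at 1 CPM. From EIF3K to SARS2 only ACTN4, ECH1 and HNRNPL rise above that line, ECH1 in si-NC only.

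The same reading around ABR, YWHAE and PRPF8 (chr17:503519-2184867) covered 25 neighbours. Here 9 of 25 (36%) were under 1 CPM, beside the same 43.0% of all protein-coding genes. Of the 16 tested, 0 were at least 2-fold changed, again near the share of all genes, and their median log2 ratio was 0.05. MYO1C, a myosin between YWHAE and PRPF8, had 4484 and 3235 reads and a log2 ratio of -0.01. CRK, an adaptor protein of tyrosine kinase signalling that lies next to YWHAE, had 188 and 165 reads.

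The 9 low neighbours were TIMM22 (a mitochondrial import channel), SERPINF2, BHLHA9 and RTN4RL1 at 0 in both libraries, SLC43A2 at 3 and 0 reads, RILP at 3 and 1, SERPINF1 at 1 and 1, TLCD2 at 7 and 6, and OVCA2 at 12 and 9 reads. TIMM22, a gene used by every cell with mitochondria, overlaps ABR by 153 bp on the opposite strand. The kit marks strand, but the strand setting of the count is not given in the sources used here, so that reads in the shared bases cannot be assigned with certainty.

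**Figure D4:**
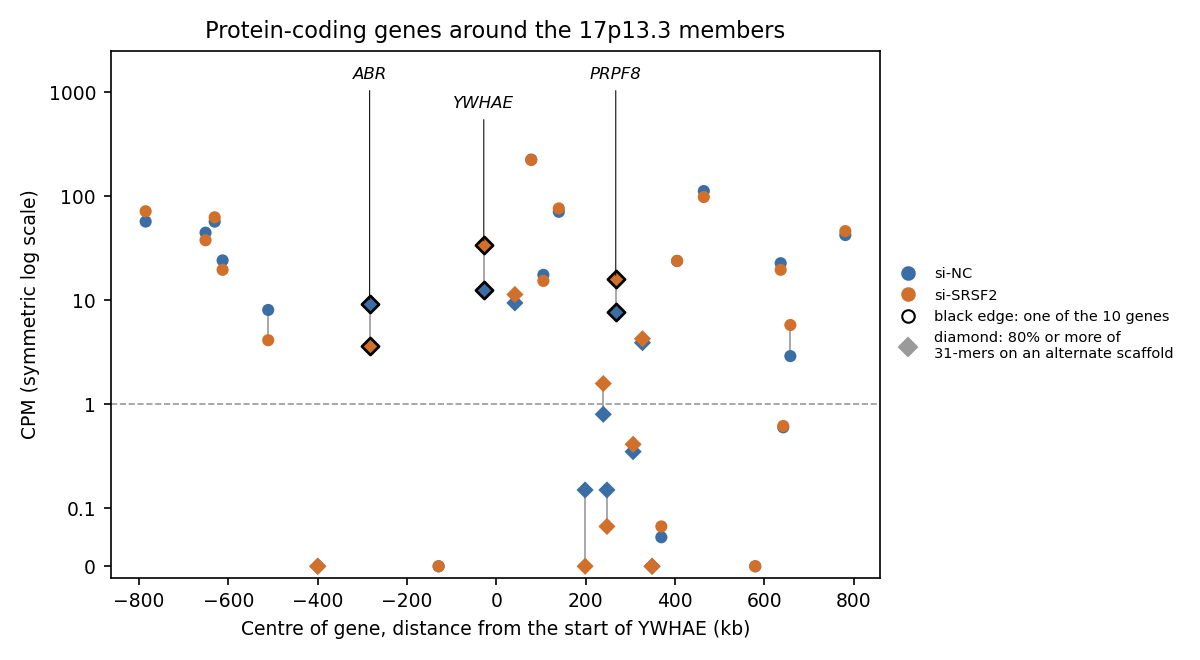
Level (CPM, symmetric log axis that includes 0) of protein-coding genes in si-NC (blue) and si-SRSF2 (orange) along 17p13.3, by distance in kb of each gene's centre from the start of YWHAE, with black edges for the 3 members and diamonds for genes that have at least 80% of their sampled sequence on an alternate scaffold. Of 8 neighbours drawn as diamonds 5 average under 1 CPM, compared with 4 of 17 drawn as circles.

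The reference genome was then searched for other places that hold the same sequence. Words of 31 bases were taken at every 10th base of the main transcript of each gene and looked up in hg38, which carries alternate scaffolds but, in the copy used here, no patch scaffolds. This measure uses no read count. The 3 genes of 17p13.3 stood on alternate scaffolds almost entirely: 470 of 473 words of ABR (99.4%), 189 of 193 of YWHAE (97.9%) and 609 of 609 of PRPF8 (100%). ABR and YWHAE share the scaffold KI270862v1, PRPF8 is on KI270861v1, and ABR also has 425 words (89.9%) on KI270910v1.

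None of the 7 genes of 19q13.2 had a word on an alternate scaffold, and 0 of their 39 neighbours reached 80%. An alternate copy in this reference is thus a feature of ABR, YWHAE and PRPF8 and not of ECH1, ACTN4 or the other 19q13.2 genes. Patch scaffolds, which are added after a genome release, were not analysed here.

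Across the genome, 3.87% of protein-coding genes in the table (709 of 18316) had at least 80% of their words on an alternate scaffold. Of these 709 genes, 82.4% were under 1 CPM, compared with 41.4% of the other 17607. Among those that averaged at least 1 CPM, 15.2% (19 of 125) differed at least 2-fold between the libraries in either direction, compared with 0.727% of the rest (75 of 10310). These 2 sets were not matched on level, and the share that passes 2-fold depends on level. Over all genes tested it was 170 of 12620, but 42 of the 10492 that averaged at least 5 CPM. ABR and YWHAE are 2 of the 19, and PRPF8 is just short of them. Which of these genes RKO cells use was not examined, and the part of the copies in the levels or ratios was not tested.

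Within the 17p13.3 window, 8 neighbours also had at least 80% of their words on an alternate scaffold, and their median level was 0.246 CPM. TIMM22, SLC43A2, RILP, TLCD2 and SERPINF2 were the 5 under 1 CPM, while CRK, SCARF1 (16 and 23 reads) and WDR81 (78 and 62 reads) were above it. The 17 other neighbours had a median of 21.9 CPM. Neighbours moved both ways below 2-fold. NXN, a thioredoxin-like protein with 21.3% of its words on a scaffold, had 161 and 60 reads and a log2 ratio of -0.89 (-1.42 to -0.53), whereas HIC1, a transcriptional repressor with none, had 58 and 84 reads and a ratio of 0.88 (0.49 to 1.5). The ratio of SCARF1 was 0.68, with a counting interval that just included 0.

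Copies on the main chromosomes were a separate matter. Words found at more than 1 place on them made up 35.6% of HNRNPL (69 of 194), 33.7% of YWHAE (65 of 193), 8.52% of ACTN4 (38 of 446), 1.72% of EIF3K and 0.211% of ABR, and 0 of ECH1, SIRT2, NFKBIB, SARS2 and PRPF8. The median of protein-coding genes was 0.435%. For ECH1, neither kind of copy was found with these words in this reference.

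Of 13 annotated pseudogenes named after the members, 2 carried more than 2 reads in a library. HNRNPLP2 (chr15:34489002-34490571, minus strand) matches the HNRNPL transcript at 96.8% of 1570 aligned bases, and YWHAEP1 (chr7:64433830-64434592, plus strand) matches that of YWHAE at 96.1% of 590. A stretch of each pair is shown because it lets a reader see which bases can tell the gene from its pseudogene within 1 read of 150 bases. Each stretch is the first run of 90 aligned bases without a gap in the coding sequence of the gene. Both stretches hold more differences per base than the whole alignments, which had 46 mismatches in 1570 bases and 22 in 590. The sequences come from the GRCh38 reference and run 5′ to 3′ on the transcribed strand, and capitals mark the bases that differ. HNRNPL is shown at bases 270 to 359 of its transcript and HNRNPLP2 at chr15:34490429-34490518, with 6 differences in 90 bases. YWHAE is shown at bases 176 to 265 and YWHAEP1 at chr7:64433928-64434017, with 5 differences.
HNRNPL: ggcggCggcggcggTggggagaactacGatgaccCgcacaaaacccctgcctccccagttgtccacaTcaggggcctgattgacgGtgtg
HNRNPLP2: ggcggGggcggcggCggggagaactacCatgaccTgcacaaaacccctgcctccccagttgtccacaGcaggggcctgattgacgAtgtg
YWHAE: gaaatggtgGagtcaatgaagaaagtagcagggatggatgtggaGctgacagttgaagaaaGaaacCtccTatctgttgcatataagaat
YWHAEP1: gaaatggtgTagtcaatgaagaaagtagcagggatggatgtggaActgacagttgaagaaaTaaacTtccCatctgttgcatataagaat

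HNRNPLP2 had 147 reads in the control and 177 after knockdown, equal to 30.8% and 43.6% of the reads given to HNRNPL. Its log2 ratio was 0.69 (0.40 to 1.05). YWHAEP1 had 91 and 99 reads, equal to 36.7% and 20.04% of the reads given to YWHAE, with a log2 ratio of 0.53 (0.15 to 1.01). Both pseudogenes were thus higher in si-SRSF2, as were their parent genes. A read that covers a stretch shown above spans its differing bases, 6 for HNRNPLP2 and 5 for YWHAEP1. The whole alignments held 46 mismatches in 1570 bases and 22 in 590. Whether they hold a run as long as a read without a difference was not examined. Whether reads of HNRNPL and YWHAE were left out or given to the pseudogenes was not measured, so their counts remain uncertain by an unknown amount. The 11 other pseudogenes, ACTN4P1 and EIF3KP1 among them, had 0 to 2 reads, so few reads stood under those names. YWHAEP5, which matches YWHAE at 96.1% of 764 aligned bases, had 0 reads in si-NC and 1 in si-SRSF2.

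Each gene was next set beside the other genes of its family, complex or pathway, in CPM per kilobase of transcript. This level is scaled for length but not for sequence copies, which differ widely between genes, so the ranks are of counted reads. In lists of this size, a count of 0 genes at least 2-fold changed is near the 1.35% of all genes tested, and the members themselves were chosen on their ratios. Of 20 genes of fatty acid beta-oxidation, ECH1 ranked 10th in si-NC, at 24.3, and 19th in si-SRSF2, at 0.632. The median of the other 19 was 23.8 and 24.2. Among the 18 others tested, 0 were at least 2-fold changed, and their median log2 ratio was 0.03. ACADVL, the very-long-chain acyl-CoA dehydrogenase, was the most abundant at 193 and 192, and DECR2, a peroxisomal dienoyl-CoA reductase, the least, with 1 read in si-NC and 0 in si-SRSF2.

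ACTN4 ranked 11th of 15 actinins and actin cross-linkers in both libraries, at 1.93 and 0.594, beside a median of 47.6 and 46.9 for the others. Its non-muscle partner ACTN1 had 9157 and 5958 reads, or 123 and 110 CPM per kilobase, and FLNA, a filamin, led the list at 253 and 212. ACTN2 and ACTN3, made in muscle, were at 0 in both. Of the 10 others tested, 0 were at least 2-fold changed (median log2 ratio -0.14).

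EIF3K was the lowest of 13 EIF3 subunits in both libraries, at 0.780 and 0.714, where the median of the others was 84.3 and 97.5. EIF3E was highest at 493 and 434. The next lowest was EIF3C, at 2.41 and 5.07, which had 140 and 214 reads and the only ratio of at least 2-fold among 12 others tested (log2 1.02), and 99.1% of its words lie at more than 1 place on the main chromosomes. The 12 others had a median log2 ratio of 0.19. The median of the other subunits was 108 times the level of EIF3K in si-NC and 137 times in si-SRSF2.

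HNRNPL ranked 18th of 21 hnRNP proteins in si-NC and 16th in si-SRSF2, at 11.2 and 13.1, beside medians of 76.6 and 89.8. HNRNPA2B1 was highest (284 and 311), and HNRNPH2 lowest, with 1 read in each library. None of the 19 others tested was 2-fold changed, and their median log2 ratio was -0.02.

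SIRT2 was the lowest of 7 sirtuins, at 0.189 and 0.444, beside a median of 9.07 and 7.62. SIRT7, a nucleolar deacylase, led at 16.6 and 15.7, and even the next lowest, the mitochondrial SIRT5, stood at 2.29 and 1.65. NFKBIB was the lowest of 13 genes of NF-kB and its inhibitors, at 0.253 and 0.231, beside medians of 16.9 and 15.7. RELA, the main activating subunit, led that list at 51.6 and 45.7, and IKBKG, with 84.0% of its words at more than 1 place on the main chromosomes, was the next lowest at 3.15 and 2.23. None of the 6 other sirtuins or 12 other NF-kB genes tested was 2-fold changed, with median log2 ratios of -0.22 and -0.18.

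SARS2 ranked 16th of 17 mitochondrial aminoacyl-tRNA synthetases, at 0.235 and 0.107, beside medians of 10.9 and 10.2. IARS2 led at 97.3 and 92.5. Only VARS2 was lower, with 0 reads in the control and 1 after knockdown, and 100% of its words are on an alternate scaffold. Of the 15 others tested, 0 were 2-fold changed (median log2 ratio -0.03).

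The 17p13.3 genes were also low beside their relatives. ABR, at 1.72 and 0.677, was set beside BCR, its closest relative, which stood at 7.67 and 7.11. BCR had 1037 reads in the control and 700 after knockdown, and its log2 ratio was -0.11 (counting interval -0.25 to 0.03), and 35.8% of its words lie at more than 1 place on the main chromosomes. The level of BCR was 4.46 times that of ABR in si-NC and 10.5 times in si-SRSF2.

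YWHAE was the lowest of the 7 14-3-3 genes in both libraries, at 6.06 and 16.6, under SFN at 20.1 and 18.02 and far under YWHAZ at 313 and 356. The medians of the others were 79.1 and 80.5. Although higher in si-SRSF2, YWHAE thus stayed below each of the other 6, none of which was 2-fold changed (median log2 ratio -0.01).

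PRPF8 ranked 10th of 11 U5 and tri-snRNP proteins, at 1.05 and 2.18, beside medians of 28.6 and 28.1. SNRNP200, the helicase that works with PRPF8 in the U5 snRNP, led at 59.6 and 54.8. PRPF31 alone was lower, at 0.931 and 0.301, with 34 and 8 reads and 100% of its words on an alternate scaffold. Its log2 ratio was -1.07 (counting interval -2.95 to -0.49). Its mean of 1.13 CPM passed the limit of 1 CPM only through si-NC, at 1.71 CPM beside 0.551 in si-SRSF2. It was the only one of the 10 others that was at least 2-fold changed, and their median log2 ratio was -0.07.

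**Figure D5:**
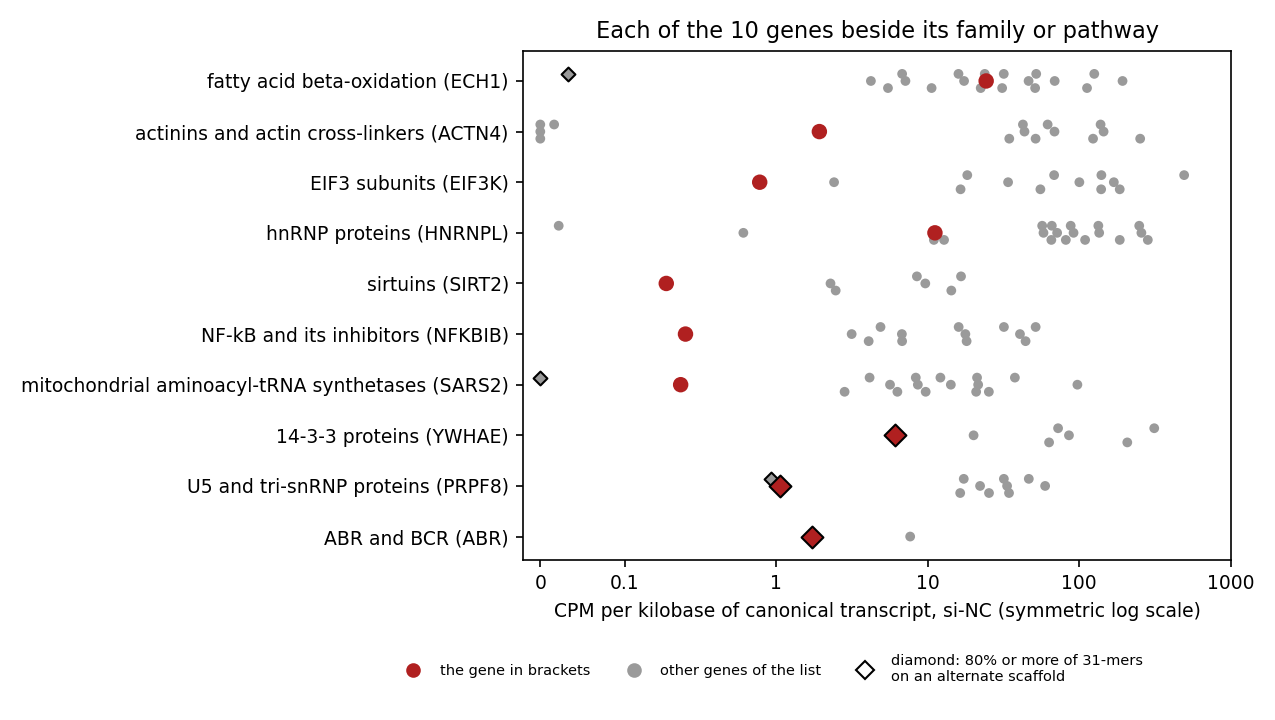
Level in si-NC (CPM per kilobase of transcript, symmetric log axis that includes 0) of each of the 10 genes (red) beside the other genes of its list (grey), 1 list per line, with diamonds for genes that have at least 80% of their 31-base words on an alternate scaffold. EIF3K, SIRT2, NFKBIB and YWHAE are the lowest of their lists, ABR lies below BCR, and ECH1 lies in the middle of its list at 24.3.

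Over all 10 lists, 116 other genes had a row. Of these, 7 were under 1 CPM, namely DECR2, ACTN2, ACTN3, FLNC, PDLIM1, HNRNPH2 and VARS2, and of the 109 tested 1 was at least 2-fold lower (PRPF31) and 1 higher (EIF3C), with a median log2 ratio of -0.06. That is near the 1.35% of all genes tested. In 3 of the 116, at least 80% of the words stood on an alternate scaffold, near the 3.87% of all protein-coding genes. They were DECR2 and VARS2, both under 1 CPM, and PRPF31, the lower one, which reached a mean of 1 CPM only through si-NC.

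Whether the SRSF2 siRNA could pair with the members was read from its sequence. The strand below matches the SRSF2 transcript over all 19 bases, and capitals mark the bases that pair with bases 2 to 8 of the guide strand, the seed.
si-SRSF2: uccaaauccagGUCGCGAu
The seed site GTCGCGA was in none of the 10 transcripts and in 1.81% of all protein-coding transcripts. The site for the seed of the other strand, GATTTGG, was also in none of the 10, and in 22.9% of all. The longest ungapped agreement was 11 of 19 bases in ECH1 and EIF3K, 13 in HNRNPL and 12 in each of the others, where the median transcript had 12. A match of this kind describes the letters only.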

How the data were processed

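The authors prepared stranded mRNA libraries from RKO cells, sequenced them as paired 150 bp reads, aligned these to GRCh38 with HISAT2 (version 2.0.4 in the submitters' processing notes) and deposited HTSeq read counts per gene for 1 si-NC and 1 si-SRSF2 library. The deposited counts are raw, and the replicate number is 1 per group, so no test was run and edgeR (4.0.16, R 4.3.3) served only to scale library sizes by TMM. Log2 ratios are of CPM plus a pseudocount of 0.5, over genes averaging at least 1 CPM. Intervals without the pseudocount are 95% Clopper-Pearson intervals (SciPy 1.17.1) and cover counting error only, as reads are not independent molecules.

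Positions, transcript lengths and overlaps come from GENCODE release 44, whereas the methods name another annotation release. Of 20046 protein-coding genes, 18316 had a row. Words of 31 bases were looked up in hg38, and pseudogenes were aligned with BLAST 2.17.0. Scripts were tested on simulated data. DESeq2 size factors (1.42.0), other pseudocounts, limits and window sizes were tried as alternatives. The members and lists were chosen with earlier results of these data known. The genes named are the members, SRSF2, their nearest neighbours, up to 10 low neighbours per window, the extremes of each list, genes at least 2-fold changed there and the 3 ratios nearest to ECH1 and ACTN4. TRO, ACTN1, NXN, HIC1, MYO1C, PSMD8, PAK4, CRK, SCARF1, WDR81 and the low list genes were named after their values were seen. A gene near ECH1 by ratio and part of the list for ABR are not reported here.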

Additional observations from a re-analysis of the deposited data

How the results depend on the processing

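With 1 library per group, no ratio has a replicate check, and at 12 or fewer reads (EIF3K, SIRT2, NFKBIB, SARS2) counting error alone spans both directions. No paired analysis was possible because neither group has a second library. No member changed direction under any scaling, pseudocount or library-size alternative. The log2 ratio of ECH1 ranged from -5.09 to -3.50, the last with a pseudocount of 2, and that of ACTN4 from -1.67 to -1.23. PRPF8 passed 2-fold, making 2 members at least 2-fold higher, with upper-quartile factors, with a pseudocount of 0.1, and with mitochondrial genes and the 20 most abundant genes left out. ABR fell short of 2-fold, at -0.997, with a pseudocount of 2, leaving 2 members at least 2-fold lower in place of 3. At 250 kb, 14 of 19 neighbours at 19q13.2 were under 1 CPM (73.7%), compared with 23 of 39 at 500 kb (59.0%) and 32 of 57 at 1 Mb (56.1%). No neighbour in either window reached 2-fold under any alternative run. Genes at least 2-fold changed numbered 170, but 305 and 45 with pseudocounts of 0.1 and 2, and 348 and 42 with no filter and with a minimum of 5 CPM. These counts follow from the construction of the ratio and the filter.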

Other observations

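FBL, which encodes fibrillarin, the methyltransferase of nucleolar RNA, lies within 1 Mb of the 19q13.2 genes and had 31 reads in the control and 10 after knockdown, with a log2 ratio of -0.79 with 0.5 CPM added and -1.17 without (counting interval -2.37 to -0.11), or 44.3% of the control level left. Of 25 neighbours tested in that wider window, 0 reached 2-fold with 0.5 CPM added, and their median log2 ratio was 0.09. The wider window was not run with a smaller pseudocount. None of the words of FBL were on an alternate scaffold. In the same stretch, the ribosomal protein gene RPS16 had 13339 and 10310 reads. FBL was named after its values were seen.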
